A study of Mus musculus with 20 samples.

Results

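Basal cells were compared with Sca1-positive luminal cells of the mouse mammary gland, both sorted from animals in which the H1047R form of PIK3CA, the catalytic subunit of phosphoinositide 3-kinase, had been switched on. The comparison used 5 of the 20 microarrays in the series, taken by their titles: 3 of mutant GFP-positive basal cells (replicates 1, 2 and 3) and 2 of mutant GFP-positive Sca1-positive luminal cells (replicates 1 and 3). The animals carried K8-creERT2/PIK3CA H1047R on a mixed FVB/CD-1 background, and their glands were taken 4 weeks after tamoxifen. In these mice a tamoxifen-inducible Cre under keratin 8 control starts the transgene, so that only cells in which that promoter was active when tamoxifen was given, and the cells they gave rise to, can express it. Per the labels, GFP marked the cells that expressed the transgene. The basal gate took CD45-negative cells with low CD24 and no Sca1, and the luminal gate took CD45-negative cells with high CD24 and Sca1. A second set of arrays was contrasted to ask whether the basal to luminal difference itself was altered in mutants. It came from tamoxifen-treated K8-creERT2 animals without the transgene: 3 control basal arrays and 3 control Sca1-positive luminal arrays, gated on GFP-negative cells. The spread behind every SE and p-value was estimated from all 20 arrays of the series, those outside the comparison included. Each array was made from amplified RNA of 2000 sorted cells, from pooled glands of 2 to 3 estrus-synchronised mice, and there were 3 independent sortings.

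The mammary epithelium is a bilayer. The inner luminal layer holds secretory progenitors and hormone-sensing cells that carry the estrogen and progesterone receptors, and Sca1 is used in the sort to enrich the hormone-sensing kind. The outer basal layer holds contractile myoepithelial cells, which express keratins 5 and 14, the transcription factor p63 and smooth muscle proteins, rest on the basement membrane and squeeze milk from the alveoli under oxytocin.

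Levels are log2 intensities, on which 1 unit is a doubling, and differences are given as basal minus luminal. The median over all probe sets lay between 3.66 and 3.80 in the 20 arrays, and levels under 4.5 are called near the array median here. Such a level cannot be told from background, so folds against such a level understate the change. Over all genes the basal arrays correlated with each other at r = 0.940 to 0.957, the luminal pair at 0.969, and basal with luminal arrays at 0.894 to 0.919. Basal replicate 2 had the narrowest spread of values of the 20 arrays (SD 1.71, against a highest value of 1.88). The gated markers followed their gates and are no finding. Cd24a stood at 10.003, 10.24 and 10.50 in the basal arrays and 10.93 and 10.83 in the luminal arrays. Ptprc, which encodes CD45, was near the array median in both groups (3.54, 3.83 and 3.50 and 3.33 and 3.40). Ly6a, which encodes Sca1, had no probe set of its own. Krt8, whose promoter drives the Cre, was high in both populations (11.17, 10.54 and 10.86 in basal, 11.96 and 11.96 in luminal arrays). The Pik3ca probe set read 6.57, 6.98 and 5.97 against 6.61 and 5.86 and was not called (difference 0.27, SE 0.29, adjusted p = 0.682). Whether it detects the transgene was not tested.

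Of 19937 genes tested, 2125 (10.7%) differed between the populations at an adjusted p under 0.05 in limma: 896 (4.49%) were higher in basal cells and 1229 (6.16%) were lower. These shares are the background against which the count of each gene list below is to be read. In 7422 genes (37.2%) all arrays of 1 population lay above all arrays of the other, and so did they in 2123 of the 2125 called genes. Large differences were about as frequent in each direction, with 266 genes over 4-fold higher and 260 over 4-fold lower, and 55 and 41 over 16-fold. Fits without a luminal array are less precise, and the count was lower in them. It was 1341 without luminal replicate 1 and 1322 without luminal replicate 3, where the remaining luminal array was assumed to vary like the other groups. Leaving out any basal array gave 1764 to 1996. With only the 5 compared arrays in the fit the count was 1589, of which 1363 were among the 2125. As sorted bulk populations were measured, fewer cells of a type and less RNA per cell cannot be told apart in any of these differences.

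**Figure D1:**
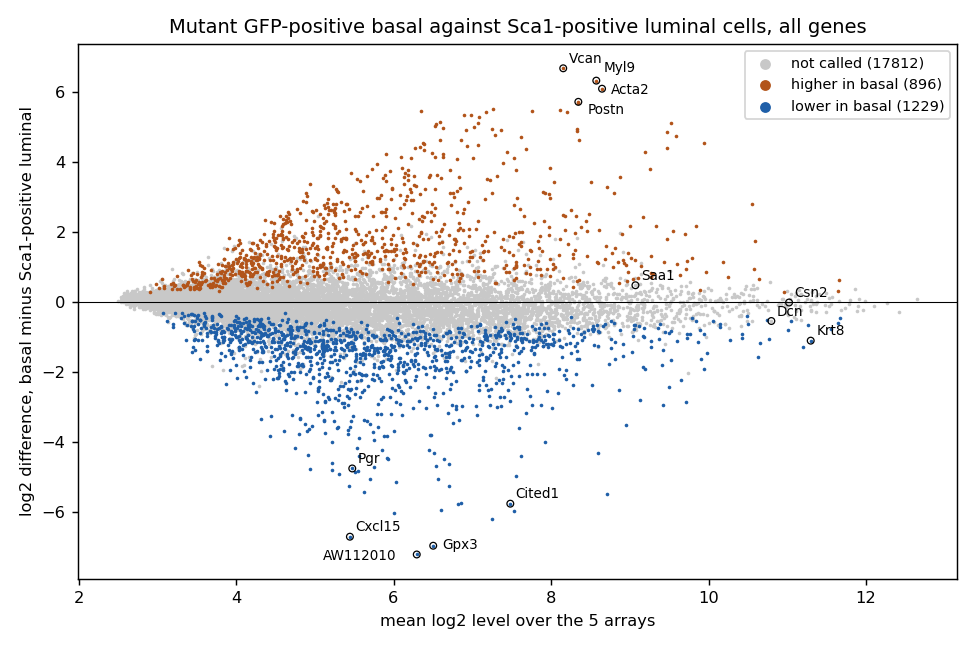
Each point is 1 of 19937 genes, with its mean log2 level over the 5 arrays on the x axis and its log2 difference, GFP-positive basal minus Sca1-positive luminal, on the y axis. The 896 genes called higher in basal cells are orange, the 1229 called lower are blue, and circles mark genes described in the text, from Vcan at 6.68 to AW112010 at -7.21.

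The gene with the largest positive difference was Vcan, the matrix proteoglycan versican. It read 10.88, 10.71 and 10.90 in the basal arrays and 4.09 and 4.196 in the luminal arrays (difference 6.68, SE 0.37, adjusted p = 6.46e-09), so that the luminal arrays were near the array median. Myl9, Acta2, Cnn1 and Myh11, all parts of the smooth muscle contractile apparatus, were also among the 15 genes with the largest positive differences. The others were matrix or secreted proteins and a few of other kinds: Postn (periostin, 5.72), Ecrg4 (5.68), the Wnt antagonist Sfrp1 (5.52), Scrg1 (5.47), the cyclophilin Ppic (5.43), the proteoglycan Bgn (5.43), the ERBB ligand Nrg1 (5.36), the matrilin Matn2 (5.35), the membrane glycoprotein Emb (5.30) and the cytokine Il24 (5.14).

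At the other end, AW112010 read 3.36, 3.58 and 3.29 in basal and 10.65 and 10.60 in luminal arrays (difference -7.21, SE 0.62, adjusted p = 8.38e-07). Gpx3, a secreted glutathione peroxidase, read 4.03, 3.16 and 3.96 against 10.66 and 10.71 (difference -6.96, SE 0.38, adjusted p = 5.64e-09). The chemokine Cxcl15 was at or below the array median in all 3 basal arrays (2.85, 2.76 and 2.68) and at 9.70 and 9.24 in the luminal arrays (difference -6.71, SE 0.66, adjusted p = 3.29e-06). The rest of the 15 largest negative differences included enzymes and transporters. Ido1, which breaks down tryptophan, differed by -6.02, the sodium iodide symporter gene Slc5a5 by -5.75, and the cysteine dioxygenase gene Cdo1 by -5.26. The serine protease gene Tmprss2 (-5.96), the WAP-domain gene Wfdc2 (-5.96), the tetraspanin gene Tspan13 (-5.77), Fam25c (-6.19), Tlcd4 (-5.41), Dmbt1 (-5.25), Gipc2 (-5.15) and the cornified envelope gene Sprr1a (-5.48) made up the group with Cited1. Sprr1a varied most among the basal arrays (6.84, 5.32 and 7.40, against 11.94 and 12.06).

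The contractile genes were called higher in basal cells for 13 of 16 members and lower for none, with a median difference of 2.90, against 0.023 over all genes, and the count stayed at 13 when any of the 5 arrays was left out. Acta2, smooth muscle actin, read 11.15, 11.13 and 10.99 in basal and 4.72 and 5.26 in luminal arrays, means of 11.09 ± 0.09 (SD, n = 3) and 4.99 ± 0.38 (SD, n = 2) (difference 6.10, SE 0.36, adjusted p = 1.2e-08). Myl9, the regulatory light chain of smooth muscle myosin, read 11.44, 10.78 and 11.10 against 4.27 and 5.28 (difference 6.33, SE 0.29, adjusted p = 1.04e-09). The basal arrays lay within 1 unit of each other for both genes, and every luminal array was far below them. Myh11, the smooth muscle myosin heavy chain, had 9.93, 10.01 and 9.87 against 4.28 and 4.68 (difference 5.45, SE 0.17, adjusted p = 1.43e-11). Cnn1 (calponin, 5.49), Tagln (transgelin, 4.495), Actg2 (4.46) and the tropomyosin gene Tpm2 (3.56) followed. Oxtr, the oxytocin receptor, was less uniform: 7.23, 6.15 and 5.83 in basal arrays, with replicate 1 highest, and 3.77 and 3.40 in luminal arrays (difference 2.82, SE 0.37, adjusted p = 7.27e-05). Tpm1 and Smtn were high in luminal cells as well and differed by 1.14 and 1.22. Des was near the array median in both populations, and Kcnmb1 (1.73) and Lmod1 (0.54) were not called. Lmod1 was called higher in limma with array weights (adjusted p = 0.0413).

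The promoters of these genes were searched for the CArG box, the element through which serum response factor acts on smooth muscle genes, in the 250 bases before and 50 bases after each RefSeq start (GRCm38.p6), on both strands. Only the exact pattern CCWWWWWWGG was counted, where W is A or T. Variants of the pattern were not searched, so a promoter without a match may still hold a variant box. The exact pattern was present in 535 of 32851 promoters (1.63%). Of the 14 promoters of the 13 contractile genes with an entry, 1 held it, that of Myl9. Of the 14 promoters of 9 hormone-sensing luminal genes, 1 held it as well, that of Cited1. The boxes of these genes differ in their middle letters. The 250 bases before each start are shown 5′ to 3′, with the CArG box in capitals, because these genes lie at opposite ends of the comparison. The Myl9 sequence is chr2:156775214-156775463 on the plus strand, with the box 161 to 152 bases upstream of the start. The Cited1 sequence is chrX:102252182-102252431 on the minus strand, with the box 45 to 36 bases upstream. A match is a description of the letters and not a bound site.
Myl9: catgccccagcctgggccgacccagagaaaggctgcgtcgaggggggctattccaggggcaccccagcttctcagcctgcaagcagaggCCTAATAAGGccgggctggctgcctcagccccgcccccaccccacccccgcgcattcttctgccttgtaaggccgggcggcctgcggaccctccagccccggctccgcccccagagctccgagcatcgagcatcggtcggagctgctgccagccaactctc
Cited1: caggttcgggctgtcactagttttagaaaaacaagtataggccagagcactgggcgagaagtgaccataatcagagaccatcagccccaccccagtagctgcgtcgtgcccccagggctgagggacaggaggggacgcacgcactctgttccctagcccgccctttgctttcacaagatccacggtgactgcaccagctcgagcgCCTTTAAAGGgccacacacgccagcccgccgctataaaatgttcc

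Among the 16 basal and EMT transcription factors, 7 were higher and none lower. Trp63, which encodes p63, the regulator of the basal state, read 9.39, 9.15 and 8.97 in basal and 4.55 and 5.57 in luminal arrays (difference 4.11, SE 0.25, adjusted p = 1.62e-08). Snai2 (Slug) read 9.20, 9.03 and 9.21 against 4.90 and 4.83 (difference 4.28, SE 0.35, adjusted p = 5.03e-07). Both separated the groups by over 3 units in every pair of arrays. Egr2 (2.27), Sox10 (1.40), Id4 (1.29), Zeb1 (1.18) and Mef2c (0.85) were higher by less. The call of Mef2c was lost in some fits that left out an array (adjusted p up to 0.1 without luminal replicate 1 or luminal replicate 3). Twist1, Twist2, Zeb2 and Myocd were near the array median in both populations. Snai1 stood at 4.78, 5.14 and 4.88 and 4.88 and 4.98 and was not called, and Srf, which encodes serum response factor, was not called either (8.14, 6.96 and 7.01 against 8.42 and 8.46).

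Of the 7 basal keratins, 4 were higher in basal cells and 1 was lower. Krt5 read 10.85, 10.64 and 10.86 against 6.76 and 7.18 (difference 3.81, SE 0.28, adjusted p = 1.33e-07), Krt17 differed by 3.97, Krt15 by 3.29 and Krt14 by 2.43. The luminal arrays were not near the array median for Krt14 (7.88 and 7.55), Krt5 or Krt15 (6.49 and 6.99). Without luminal replicate 3, 3 of the 7 were called higher, Krt14 being lost (adjusted p = 0.0602 without luminal replicate 3). Krt6a went the other way, with 4.39, 4.87 and 5.10 in basal and 9.13 and 9.09 in luminal arrays (difference -4.32, SE 0.61, adjusted p = 0.000138). Krt16 (7.79, 7.48 and 6.53 and 7.36 and 6.85) was not called.

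The luminal keratins and epithelial genes were lower in basal cells for 13 of 14 members and higher for none, with a median of -1.58. That count fell to 9 without luminal replicate 1 and to 11 without luminal replicate 3. The keratins of this list differed by unequal amounts. Krt7 read 6.93, 5.78 and 6.25 against 10.32 and 10.31 (difference -4.001, SE 0.38, adjusted p = 2.02e-06) and Krt19 9.30, 7.60 and 8.83 against 11.46 and 11.39 (difference -2.85, SE 0.43, adjusted p = 0.000258). Krt8 and Krt18 differed by only -1.10 and -1.29 and stayed above 10 in all 3 basal arrays. The call of Krt8 was lost with a luminal array left out (adjusted p up to 0.0632 without luminal replicate 1 or luminal replicate 3), and those of Esrp1 (adjusted p = 0.203 without luminal replicate 1), Spint2 (adjusted p = 0.0596 without luminal replicate 1) and the gated Cd24a (adjusted p up to 0.142 without basal replicate 1, luminal replicate 1 or luminal replicate 3) were lost as well. The small GTPase gene Rab25 (-3.16), the membrane serine proteases St14 (matriptase, -2.72) and Prss8 (prostasin, -2.59), and their inhibitors Spint1 (-2.36) and Spint2 (-1.21) were all lower. So were the epithelial splicing factors Esrp1 (-1.13) and Esrp2 (-1.88) and the adhesion molecule Epcam (-0.86). Muc1 was not called. Its basal arrays ranged widely, at 6.80, 3.99 and 6.26, with replicate 2 near the array median, and the luminal arrays read 6.75 and 5.999.

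**Figure D2:**
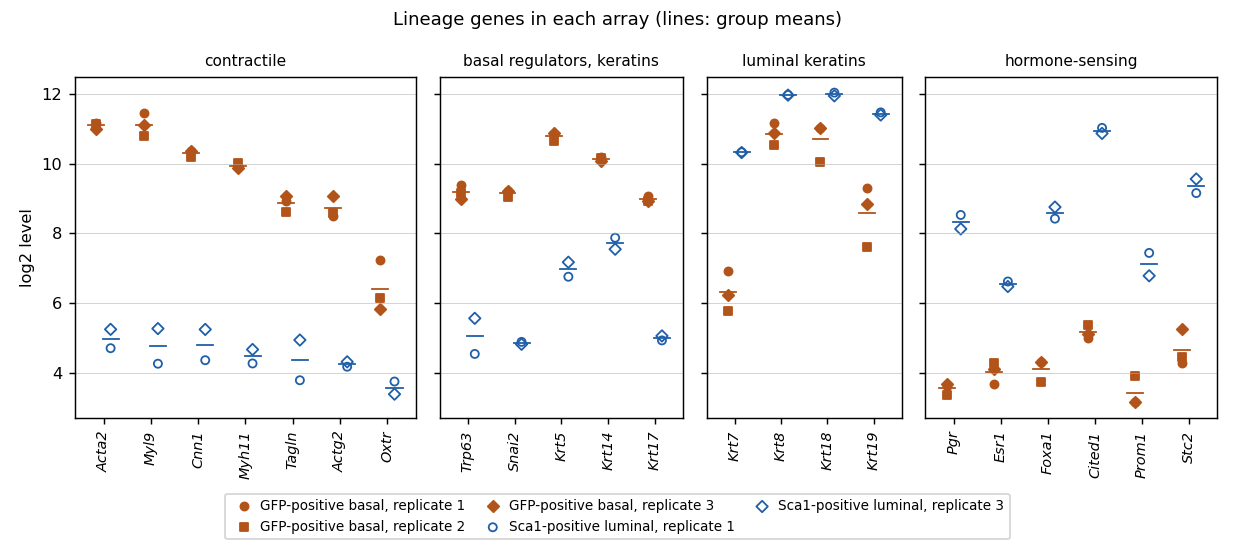
Log2 level in each of the 3 GFP-positive basal arrays (filled orange symbols) and 2 Sca1-positive luminal arrays (open blue symbols), with lines at the group means, for contractile genes, basal regulators and keratins, luminal keratins and hormone-sensing genes. Acta2 stands at 11.15, 11.13 and 10.99 in basal and 4.72 and 5.26 in luminal arrays, while Krt8 lies above 10 in all 5.

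The hormone-sensing luminal list was lower in basal cells for 7 of its 10 measured members and higher for none, with a median of -3.10, and the count was 7 whichever of the 5 arrays was left out. Pgr, the progesterone receptor, read 3.65, 3.37 and 3.70 in basal and 8.53 and 8.13 in luminal arrays (difference -4.75, SE 0.34, adjusted p = 8.89e-08). Esr1, the estrogen receptor, read 3.69, 4.31 and 4.11 against 6.63 and 6.48 (difference -2.52, SE 0.30, adjusted p = 2.21e-05). Basal levels of both receptors were close to the array median and did not overlap with the luminal ones. Foxa1, the pioneer factor that opens chromatin for the estrogen receptor, had 4.32, 3.77 and 4.32 against 8.42 and 8.76 (difference -4.45, SE 0.42, adjusted p = 2.11e-06). The coactivator gene Cited1 had 5.02, 5.38 and 5.13 against 11.02 and 10.86 (difference -5.76, SE 0.42, adjusted p = 1.23e-07). Stc2 (stanniocalcin 2, -4.69), Prom1 (the stem cell antigen CD133, -3.69) and Tbx3 (-2.02) were also lower. Of the genes for paracrine signals, Tnfsf11, which encodes RANKL, was near the array median in all 5 arrays. Wnt4 read 4.86, 4.74 and 5.24 against 5.25 and 5.57, without overlap, and was not called (adjusted p = 0.39), but it was called lower, by -0.76, when the probe sets of a gene were averaged (adjusted p = 0.0155). Areg, Prlr and Calca were not analysed here.

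Luminal transcription factors as a whole were mixed, with 5 of 18 lower, 2 higher and 11 not called. Besides Foxa1 and Tbx3, Elf3 (-2.91), Grhl1 (-1.72) and Myb (-1.59) were lower in basal cells. Grhl1 was lost with an array left out (adjusted p = 0.0648 without luminal replicate 1). Tfap2c (7.97, 7.29 and 7.68 against 5.45 and 5.74) and Cebpb (7.88, 7.79 and 7.77 against 6.999 and 6.90) were higher in basal cells (difference 2.05, SE 0.26, adjusted p = 5.27e-05 and difference 0.86, SE 0.13, adjusted p = 0.000322, in that order). Gata3, the central regulator of luminal fate, was high in every array (8.63, 7.83 and 8.37 and 8.45 and 8.79) and was not called (difference -0.35, SE 0.35, adjusted p = 0.653). Runx1 (0.15) and Klf5 (-0.66) were not called either. Klf5 was called lower in limma with array weights, a filter on dim genes or an intensity trend (adjusted p from 0.0342 to 0.0497).

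Luminal progenitor genes showed 1 of 12 members higher and 2 lower, and 9 not called, against 4.49% higher and 6.16% lower over all genes. The progenitor regulators Elf5 (7.01, 4.83 and 5.36 against 6.07 and 5.90) and Ehf (8.36, 8.23 and 7.54 against 8.81 and 8.76) overlapped or nearly so between the groups. Lcn2, an iron-binding acute-phase protein, was high in all 5 arrays (11.73, 11.45 and 11.61 and 11.18 and 11.50), and so was the casein gene Csn3 (9.87, 10.47 and 10.12 and 9.84 and 9.68). Lactotransferrin, Ltf, was lower in basal cells (5.81, 5.23 and 6.12 against 8.02 and 8.38, difference -2.48, SE 0.34, adjusted p = 0.000123), as was Cd14 (-1.39). The call of Cd14 was lost without basal replicate 2, luminal replicate 1 or luminal replicate 3. The Notch target Hey1 was higher (1.47).

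Milk genes had a median difference of 0.00. Of 11 measured members 2 were higher and none lower, against 4.49% higher and 6.16% lower over all genes. Csn2, beta-casein, read 11.13, 10.998 and 10.92 in basal and 11.03 and 11.03 in luminal arrays, a difference of -0.01 with an SE of 1.22. Csn1s1, alpha-casein, read 10.40, 10.41 and 9.74 against 10.20 and 10.17. Both caseins were therefore high in all 5 arrays, basal ones included. The SE of Csn2 was estimated over all 20 arrays and was wide. Its SD was 0.107 in the mutant basal and 0.003 in the mutant luminal arrays, but 2.04 in control basal and 2.11 in control luminal arrays. The width thus came mostly from arrays outside the comparison, where Csn2 varied more. Under this shared spread the model sets only a loose bound on the difference of Csn2. Wap, whey acidic protein, ranged from 5.42 to 8.33 among basal arrays, with replicate 1 at the level of the luminal arrays (8.35 and 8.17), and was not called. The members called higher were Xdh (1.72), which takes part in milk fat secretion, and Mfge8 (1.26), a milk fat globule protein. Mfge8 lost its call with an array left out (adjusted p = 0.0611 without luminal replicate 1).

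Cell-matrix genes were mostly higher in basal cells. Collagens and matricellular proteins were higher for 23 of 36 members and lower for none, with a median of 1.66. Leaving out any of the 5 arrays gave 22 or 23. Postn read 10.71, 10.54 and 10.65 against 5.09 and 4.73 and the small proteoglycan Bgn 10.59, 10.29 and 10.25 against 5.001 and 4.88. Igfbp3 and Igfbp2, which bind insulin-like growth factors, read 11.53, 11.63 and 11.57 against 6.35 and 6.55 and 9.57, 8.63 and 9.48 against 4.43 and 4.15 (difference 5.13, SE 0.36, adjusted p = 9.34e-08 and difference 4.94, SE 0.23, adjusted p = 1.38e-09, in that order). In each of these 4 genes the lowest basal array was over 4 units above the highest luminal one. Dcn, decorin, was high in both populations, with 10.84, 10.15 and 10.75 in basal and 11.17 and 11.08 in luminal arrays, and was not called (difference -0.54, SE 0.50, adjusted p = 0.621). Ccn1 was also high in all 5 arrays (0.08), and Col1a1 was low in both groups (4.30, 4.55 and 4.52 and 4.49 and 4.36).

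Laminins and hemidesmosome genes, which build and hold the basement membrane, were higher for 9 of 16 measured members and lower for 2. Lama3, a chain of laminin-332, read 8.36, 8.20 and 7.98 against 4.08 and 3.99 (difference 4.14, SE 0.18, adjusted p = 8.3e-10), and Lamb1 8.14, 7.64 and 7.98 against 4.32 and 4.27 (difference 3.62, SE 0.27, adjusted p = 1.33e-07). Lamc1 (2.04), Lamb3 (1.91), Lama1 (2.58), Lama4 (1.27), the nidogen Nid1 (1.93), perlecan (Hspg2, 2.92) and the hemidesmosomal collagen Col17a1 (3.18) were higher as well. Lama5 was the reverse, 6.62, 5.81 and 6.15 in basal and 8.61 and 8.82 in luminal arrays (difference -2.52, SE 0.25, adjusted p = 3.1e-06), and Plec was lower by less (-0.99). Lama4 and Plec lost their calls with an array left out (adjusted p up to 0.208 without basal replicate 1, basal replicate 3, luminal replicate 1 or luminal replicate 3 for Lama4 and adjusted p = 0.0643 without luminal replicate 1 for Plec). The alpha chains of laminin thus went in opposite directions between the populations. Among 15 integrins, 5 were higher and 1 lower. Itga8 (3.23) and Itgb8 (2.67) had the largest differences, followed by the laminin receptor subunits Itga3 (1.49) and Itga6 (1.02) and by Itgb1 (0.53). The call of Itgb1 was lost with some arrays left out (adjusted p up to 0.266 without basal replicate 1, basal replicate 3, luminal replicate 1 or luminal replicate 3). Itgb6 was lower (-1.16), and Itgb4, the partner of alpha-6 in hemidesmosomes, was not called (-0.16).

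Junction genes were lower for 15 of 32 measured members and higher for 7, with a median of -0.87. Tight junction components were among the lower ones. Cldn4 read 7.84, 5.81 and 6.98 in basal and 11.24 and 11.12 in luminal arrays (difference -4.30, SE 0.77, adjusted p = 0.00126), with basal replicate 1 about 2 units above replicate 2. Cldn6 (-3.35), cingulin (Cgn, -2.73) and Cldn3 (-2.54) were lower, and so was the desmosomal Pkp2 (-2.60). Higher in basal cells were the gap junction protein connexin 43, Gja1 (11.20, 10.50 and 11 against 6.82 and 6.42, difference 4.28, SE 0.30, adjusted p = 8.77e-08), P-cadherin, Cdh3 (7.99, 7.42 and 7.46 against 4.00 and 3.88, difference 3.69, SE 0.20, adjusted p = 5.64e-09), and N-cadherin, Cdh2 (6.13, 5.43 and 6.85 against 2.95 and 3.07, difference 3.13, SE 0.27, adjusted p = 6.45e-07). Pkp1 (1.57) and Perp (1.56), both desmosomal, were also higher. The call of Pkp1 was lost in 1 case (adjusted p = 0.0611 without luminal replicate 3). The plakophilins Pkp1 and Pkp2 therefore lay on opposite sides. Cldn1, Jup and F11r were not called. Jup (-0.90) was called lower in limma with a filter on dim genes (adjusted p = 0.0337) or an intensity trend (adjusted p = 0.0493).

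**Figure D3:**
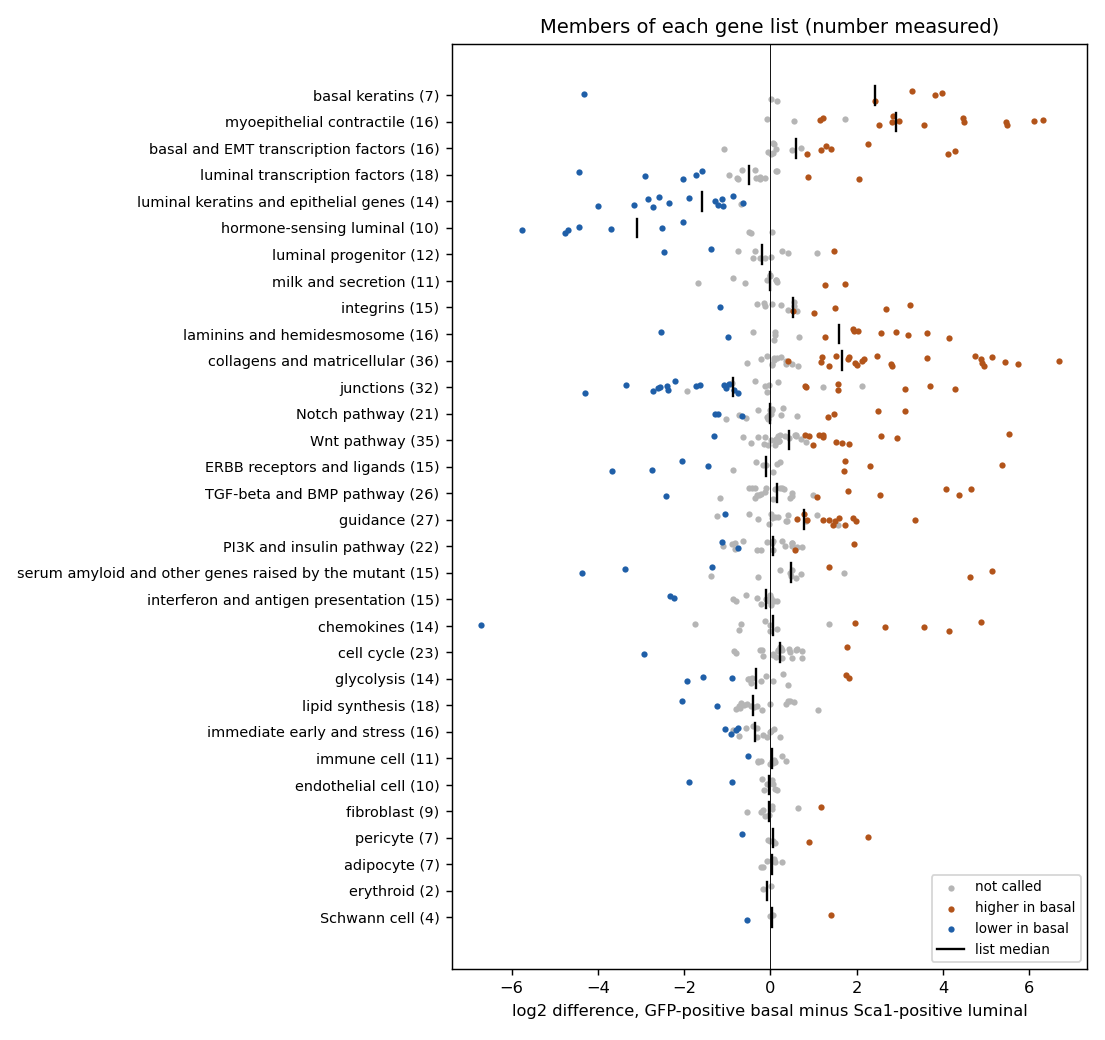
Each point is a measured gene of 1 of the 32 lists, placed by its log2 difference, GFP-positive basal minus Sca1-positive luminal. Orange and blue mark genes called higher and lower, grey those not called, and the black bar is the list's median, which is 2.90 for contractile genes and -3.10 for hormone-sensing genes.

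In the ERBB family of growth factor receptors and ligands, 4 of 15 measured members were higher in basal cells and 4 lower, and the counts were the same without any of the 5 arrays. Nrg1, neuregulin 1, the ligand of ERBB3 and ERBB4, read 9.09, 8.98 and 9.29 in basal and 3.59 and 3.94 in luminal arrays (difference 5.36, SE 0.51, adjusted p = 2.16e-06). Its receptor Erbb3 was the reverse, 4.53, 4.33 and 4.76 against 8.26 and 8.18 (difference -3.68, SE 0.48, adjusted p = 6.71e-05), and Erbb2, the co-receptor, was also lower in basal cells (5.64, 5.51 and 5.98 against 7.23 and 7.11, difference -1.46, SE 0.28, adjusted p = 0.00245). Erbb4 was near the array median in both. Egfr went the other way, 7.58, 7.12 and 7.497 against 4.84 and 5.34 (difference 2.31, SE 0.26, adjusted p = 1.34e-05), while its ligands Hbegf (-2.06) and Epgn (-2.74) were lower in basal cells and Ereg (1.73) was higher. The ERBB inhibitor Lrig1 was higher (1.70), and Errfi1 was high in all 5 arrays and not called.

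Notch pathway members were called in 7 of 21 cases, 4 higher and 3 lower, against 10.7% called over all genes. Of 5 ligands, 3 were higher in basal cells. Jag1 read 8.76, 7.79 and 8.96 against 5.15 and 5.62 (difference 3.12, SE 0.35, adjusted p = 1.34e-05), Dll1 6.41, 5.83 and 6.55 against 3.66 and 3.86 (difference 2.50, SE 0.24, adjusted p = 2.86e-06), and Jag2 differed by 1.33. Dll3 (0.04) and Dll4 (-0.06) were near the array median and not called. The call of Jag2 was lost without basal replicate 3 or luminal replicate 3. Among receptors, Notch3 was lower in basal cells by -0.66, from a luminal level of 4.68 and 4.69, and Notch1 (-0.72) and Notch2 (-0.56) were not called. The Notch targets Hes1 (7.20, 7.505 and 7.04 against 8.53 and 8.53) and Hey1 (6.27, 6.87 and 6.53 against 4.84 and 5.32) went in opposite directions.

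In the Wnt pathway 12 of 35 measured members were higher and 1 was lower. The count of higher members was 7 without luminal replicate 1 and 6 without luminal replicate 3. The secreted antagonist Sfrp1 read 9.79, 8.98 and 9.64 against 3.90 and 4.00 (difference 5.52, SE 0.24, adjusted p = 8.3e-10). The R-spondin receptor Lgr4 read 7.04, 7.18 and 7.19 against 3.81 and 4.59 (difference 2.94, SE 0.41, adjusted p = 0.000117) and the Frizzled receptor Fzd7 7.76, 8.16 and 7.57 against 4.98 and 5.55 (difference 2.56, SE 0.31, adjusted p = 3.15e-05). Fzd2 (1.82) and Lgr6 (1.65) were higher by less. The ligand gene Wnt7b was lower in basal cells (3.94, 4.21 and 4.12 against 5.35 and 5.45, difference -1.31, SE 0.22, adjusted p = 0.000851).

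TGF-beta and BMP genes were higher for 6 of 26 members and lower for 1, against 4.49% higher and 6.16% lower over all genes. Tgfbr3, the co-receptor betaglycan, read 8.71, 8.48 and 8.96 against 4.29 and 3.87 (difference 4.64, SE 0.18, adjusted p = 2.96e-10), the activin antagonist Fst 9.64, 9.19 and 9.48 against 4.88 and 5.23 (difference 4.38, SE 0.53, adjusted p = 3.09e-05), and the TGF-beta binding protein Ltbp2 9.03, 8.004 and 8.28 against 4.44 and 4.27 (difference 4.08, SE 0.33, adjusted p = 4.14e-07). Bmp7 was higher in all 3 basal arrays than in either luminal array, by 2.54. The inhibitors of differentiation split, Id2 being higher (8.99, 8.83 and 8.69 against 6.45 and 7.63) and Id3 lower (5.52, 5.68 and 4.51 against 7.39 and 7.94). Bmpr1a, Acvr1 and Smad3 were not called. Acvr1 was called higher in limma with quantile normalization (adjusted p = 0.0483).

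Guidance molecules were higher for 12 of 27 members and lower for 1, a count of higher members that dropped to 8 without basal replicate 3 or luminal replicate 1 and to 7 without luminal replicate 3. Slit3 read 8.04, 7.40 and 7.36 against 4.29 and 4.21 (difference 3.35, SE 0.43, adjusted p = 6.38e-05). The netrin receptor Neo1 (1.73), the semaphorin Sema3c (1.92) with its plexin receptor gene Plxna2 (1.98), and Epha4 (1.58) were higher, and Epha2 was lower (-1.05). Among 14 chemokine genes 5 were higher and 1 lower. Cxcl14 read 10.05, 10.06 and 10.75 against 5.25 and 5.55 (difference 4.89, SE 0.27, adjusted p = 5.64e-09), Cxcl12 8.58, 8.11 and 8.15 against 4.24 and 4.04 (difference 4.14, SE 0.27, adjusted p = 4.55e-08), and Ackr3, a scavenging receptor for CXCL12, 7.40, 7.14 and 7.33 against 3.57 and 3.89 (difference 3.56, SE 0.22, adjusted p = 2.66e-08). Ligand and scavenger were therefore both on the basal side. Cx3cl1 (2.65) and Ccl2 (1.95) were higher too, and Cxcl15 was the member that was lower. Ccl2 lost its call with an array left out (adjusted p up to 0.121 without basal replicate 2, luminal replicate 1 or luminal replicate 3).

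Genes of the PI3K and insulin pathway itself were called in 4 of 22 measured cases, 2 in each direction, against 10.7% of all genes. Pik3r1, the main regulatory subunit of the kinase, had the largest difference, 9.62, 9.68 and 9.73 in basal and 7.79 and 7.70 in luminal arrays (difference 1.93, SE 0.24, adjusted p = 3.37e-05). Tsc1 (-1.12) and Tsc2 (-0.76), which together restrain mTORC1, were lower in basal cells. Inpp4b was higher by 0.58, at levels near the array median. The call of Inpp4b was lost without basal replicate 1, luminal replicate 1 or luminal replicate 3, and that of Tsc2 without luminal replicate 1. Glycolysis genes were higher in 2 of 14 and lower in 3, against 4.49% higher and 6.16% lower over all genes. Higher were the lactate dehydrogenase Ldhb (1.74) and phosphofructokinase Pfkp (1.81), and lower were Aldoc (-1.94), Tpi1 (-1.56) and Aldoa (-0.90). Aldoa (adjusted p up to 0.242 without basal replicate 2, basal replicate 3 or luminal replicate 3) and Tpi1 (adjusted p = 0.074 without luminal replicate 3) lost their calls with an array left out. The glucose transporter gene Slc2a1 was high in every array and not called. Lipid synthesis genes were lower in 2 of 18 and higher in none, a share close to the 10.7% called over all genes. Those were Fdft1 (-2.04) and Fdps (-1.25), which encode enzymes of cholesterol synthesis. Fdps was lost when any of 4 arrays was left out (adjusted p up to 0.38 without basal replicate 1, basal replicate 2, luminal replicate 1 or luminal replicate 3).

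Cell cycle genes were called in 2 of 23 cases, a share no higher than the 10.7% called over all genes. Both encode D-type cyclins. Ccnd2 was higher (6.68, 6.10 and 6.11 against 4.51 and 4.53, difference 1.77, SE 0.41, adjusted p = 0.00879). Ccnd1 was lower (4.66, 4.74 and 7.31 against 8.17 and 8.84, difference -2.94, SE 0.71, adjusted p = 0.0123), and its basal replicate 3 stood over 2 units above the other basal arrays. Both calls were lost with some arrays left out (adjusted p up to 0.0678 without luminal replicate 1 or luminal replicate 3 for Ccnd2 and adjusted p up to 0.131 without basal replicate 1, basal replicate 2 or luminal replicate 3 for Ccnd1). Of 15 interferon and antigen presentation genes 2 were lower and none higher, also close to that share, namely the immunoproteasome subunits Psmb8 (6.84, 5.61 and 6.65 against 8.74 and 8.63, difference -2.32, SE 0.37, adjusted p = 0.000475) and Psmb9 (-2.23). B2m was high in all 5 arrays, and the class II genes Cd74, H2-Aa, H2-Ab1 and H2-Eb1 were near the array median. Immediate early and stress genes, which also respond to tissue dissociation, were lower in 4 of 16 and higher in none, against 6.16% lower over all genes. Those were Fosb (-1.05), Klf6 (-0.92), Atf3 (-0.80) and Klf4 (-0.76), and Fos, Jun and Egr1 were not called. Fos (-0.73) was called lower in limma with array weights, a filter on dim genes, an intensity trend or median centring (adjusted p from 0.0327 to 0.0482). Ier2 (-0.88) was called lower with only the 5 compared arrays in the fit (adjusted p = 0.0456). Fosb (adjusted p = 0.0735 without luminal replicate 3) and Klf4 (adjusted p up to 0.199 without basal replicate 1, basal replicate 2, basal replicate 3, luminal replicate 1 or luminal replicate 3) lost their calls with an array left out.

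A further list held 15 genes that earlier results on these arrays had shown to be raised in mutants, so it is not independent evidence of that. Between the mutant populations 3 were higher in basal cells, 3 lower and 9 not called. Saa1, serum amyloid A1, was high in both, with 9.78, 8.88 and 9.13 in basal and 8.68 and 8.88 in luminal arrays (difference 0.48, SE 0.53, adjusted p = 0.685), and Saa2 likewise (9.35, 8.23 and 8.25 and 8.29 and 7.90). The chitinase-like Chil1 read 10.998, 10.37 and 10.62 and 9.97 and 10.43. Il24 was high in the basal arrays and near the array median in the luminal arrays, with 8.60, 9.39 and 7.96 against 3.63 and 3.38 (difference 5.14, SE 0.41, adjusted p = 3.21e-07), and the carbonic anhydrase Car12 resembled it (8.68, 8.43 and 8.20 against 3.93 and 3.69, difference 4.63, SE 0.50, adjusted p = 8.54e-06). Car2 was higher by 1.35, a call that was lost without most single arrays (adjusted p up to 0.171 without basal replicate 1, basal replicate 3, luminal replicate 1 or luminal replicate 3). The reverse held for the enamel protein gene Amtn (4.72, 4.09 and 4.01 against 8.18 and 7.11, difference -3.37, SE 0.31, adjusted p = 1.4e-06), for the cornified envelope gene Sprr2f (3.13, 3.11 and 3.28 against 6.72 and 8.34, difference -4.36, SE 0.49, adjusted p = 1.29e-05) and, by less, for the nucleoside transporter gene Slc28a3 (-1.35, adjusted p up to 0.224 without basal replicate 2, basal replicate 3, luminal replicate 1 or luminal replicate 3). The list thus held genes that were high in both mutant populations and genes that were high in 1 of them.

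Of the called genes with the highest mean level, Tmsb10 (0.64), Apoc1 (1.74), Mt1 (0.65), Rn7sk (0.33) and Hspa8 (0.30) were higher in basal cells, and Krt8 (-1.10), Ly6e (-0.77), S100a11 (-0.65), Rps18 (-0.60) and S100a6 (-0.45) were lower. The lipid carrier gene Apoc1 had the largest of these, 11.39, 11.12 and 11.37 against 9.41 and 9.69. All but Tmsb10, Ly6e and S100a11 lost their calls with some array left out, with an adjusted p of up to 0.376, for Hspa8.

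Whether the basal to luminal difference itself was altered in mutants was tested as an interaction, the mutant difference minus the control difference, in the same limma model. It was called for 218 of 19937 genes (1.09%), positive for 116 (0.582%) and negative for 102 (0.512%), and 149 of the 218 were also called between the mutant populations. The count was 117 without mutant luminal replicate 3 and 124 when the model held only the 11 arrays of these 4 groups. Mutant cells were GFP-positive and control cells GFP-negative, so the transgene and the GFP gate cannot be told apart. GFP-positive cells were also limited to those in which the Cre promoter was active at tamoxifen, and their descendants. Control GFP-negative cells were not selected in this way, so cell origin cannot be told apart from the transgene either. The interaction was not tested with the mutant GFP-negative basal arrays.

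The largest positive interactions belonged to genes that were near background in both control populations. Scrg1 had means of 3.04 ± 0.08 in control basal and 2.98 ± 0.14 in control luminal cells (SD, n = 3 each), and read 9.24, 8.20 and 8.17 in mutant basal and 3.27 and 2.87 in mutant luminal arrays (interaction 5.40, SE 0.44, adjusted p = 6.79e-06). Il24 (interaction 5.22, SE 0.54, adjusted p = 9.96e-05), Fndc1 (interaction 5.08, SE 0.32, adjusted p = 9.95e-07), Sparcl1 (interaction 4.63, SE 0.59, adjusted p = 0.000653), Car12 (interaction 4.39, SE 0.67, adjusted p = 0.00265), Them5 (interaction 4.35, SE 0.63, adjusted p = 0.00176) and the elastic fibre gene Fbln5 (interaction 3.38, SE 0.27, adjusted p = 5.21e-06) had the same pattern, with every mutant basal array above every other array of the 4 groups. Nrg1 started from a control difference of 1.73 and reached 5.36 in mutants (interaction 3.63, SE 0.68, adjusted p = 0.0146). Vcan went from 3.78 to 6.68 (interaction 2.90, SE 0.49, adjusted p = 0.00667) and Sfrp1 from 2.44 to 5.52 (interaction 3.09, SE 0.32, adjusted p = 9.96e-05). Jag1 (2.64), Cdh2 (2.78), Matn2 (2.94), Cxcl12 (1.90), Plxna2 (1.78), Ereg (2.03) and Ppic (1.64) were also positive. Of the 36 members of the collagen and matricellular list, 8 were positive and 1 negative, against 0.582% and 0.512% of all genes. That list was chosen with earlier results of these data known. Calls that did not survive every fit with an array left out were those of Nrg1 (adjusted p up to 0.0733 without luminal replicate 1 or luminal replicate 3), Jag1 (adjusted p = 0.0624 without luminal replicate 1), Cxcl12 (adjusted p = 0.11 without luminal replicate 3), Plxna2 (adjusted p = 0.0863 without luminal replicate 3) and Ereg, which was lost without 7 of the 11 arrays (adjusted p up to 0.16).

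Dcn and Il33 were positive with another pattern of levels. Dcn averaged 7.43 ± 1.12 in control basal and 11.20 ± 0.35 in control luminal cells (SD, n = 3 each), a control difference of -3.77, and the mutant difference was -0.54 (interaction 3.23, SE 0.67, adjusted p = 0.026). The alarmin gene Il33 averaged 4.46 ± 0.33 and 6.83 ± 0.71 in the controls (SD, n = 3 each) and read 8.93, 8.39 and 8.43 and 8.19 and 7.55 in mutant basal and luminal arrays (interaction 3.08, SE 0.47, adjusted p = 0.00259). In both genes all control basal arrays lay more than 1 unit below all control luminal arrays, and the mutant difference was not called. The interaction of Dcn was lost without 6 of the 11 arrays (adjusted p up to 0.129).

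**Figure D4:**
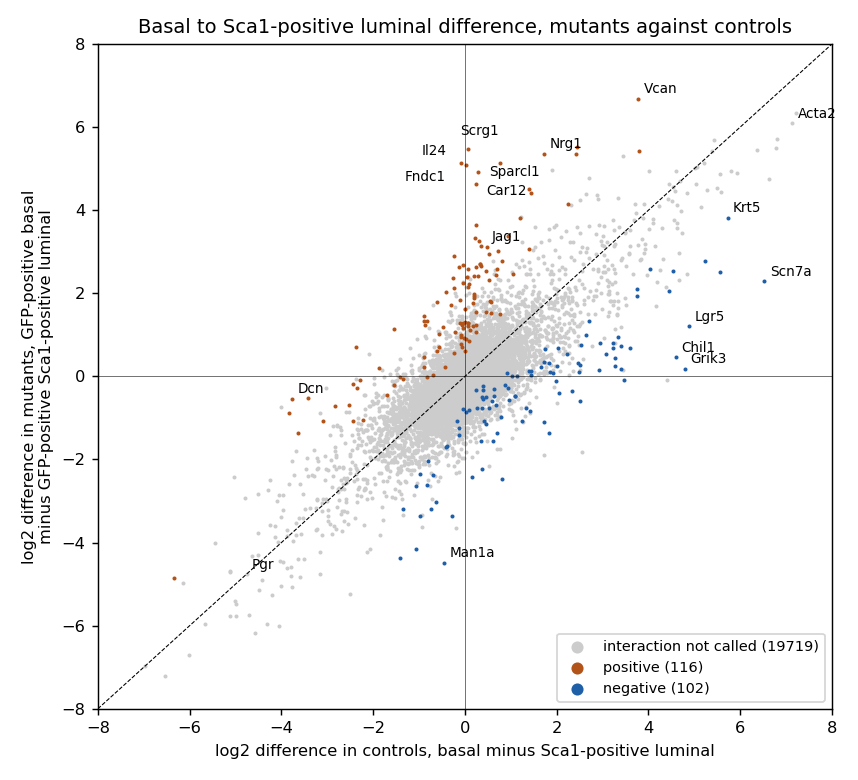
Each point is 1 of 19937 genes, with the log2 difference basal minus Sca1-positive luminal in controls on the x axis and the same difference in mutants on the y axis. Genes called in the interaction lie off the diagonal, 116 above it in orange and 102 below it in blue, and Acta2 and Pgr, which were not called, are labelled.

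Negative interactions were of several kinds. In the first, a gene high in control basal cells was much lower in mutant GFP-positive basal cells. The R-spondin receptor Lgr5 averaged 8.39 ± 0.20 in control basal cells (SD, n = 3) and read 4.60, 4.05 and 5.55 in mutant basal arrays, against 3.58 and 3.48 in mutant luminal arrays (interaction -3.68, SE 0.40, adjusted p = 0.000154). The glutamate receptor gene Grik3 averaged 8.35 ± 0.52 in control basal cells (SD, n = 3) and was near the array median in all 5 mutant arrays (interaction -4.62, SE 0.42, adjusted p = 1.99e-05). The sodium channel gene Scn7a (interaction -4.24, SE 0.52, adjusted p = 0.000419), Itprid1 (interaction -3.56, SE 0.48, adjusted p = 0.000872) and the complement inhibitor gene Serping1 (interaction -3.23, SE 0.46, adjusted p = 0.00143) went the same way. In the second kind the basal mean was lower in mutants while the luminal mean was close to or above that of controls: Man1a, a mannosidase of the Golgi, averaged 7.96 ± 0.32 and 8.42 ± 0.15 in the controls (SD, n = 3 each) and read 5.11, 4.68 and 4.75 and 9.41 and 9.26 in mutant basal and luminal arrays (interaction -4.02, SE 0.44, adjusted p = 0.000154), and the cytoskeletal gene Map1b resembled it (interaction -3.27, SE 0.60, adjusted p = 0.0121). In the third the luminal mean was higher in mutants, as for Chil1, with control means of 9.78 ± 0.40 and 5.18 ± 1.47 (SD, n = 3 each, interaction -4.14, SE 0.93, adjusted p = 0.0426), and for Amtn (interaction -3.08, SE 0.41, adjusted p = 0.000803) and Sprr2f (interaction -2.95, SE 0.65, adjusted p = 0.0406). Chil1 was lost without any of 10 of the 11 arrays (adjusted p up to 0.2), Sprr2f without any of 9 (up to 0.272) and Map1b without luminal replicate 1 of the mutants (0.0637).

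**Figure D5:**
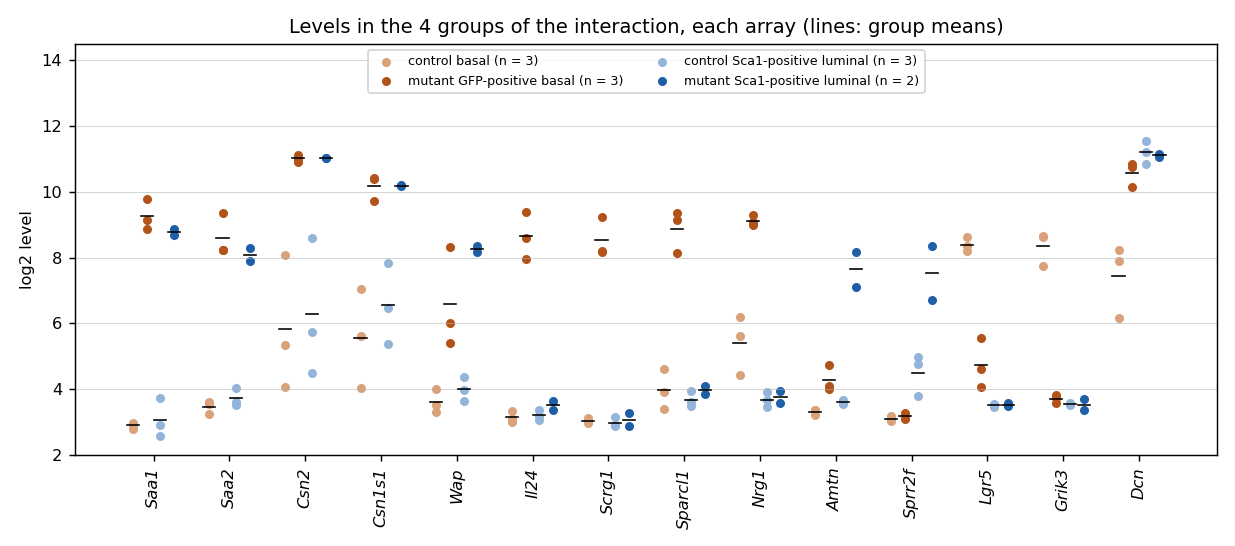
Log2 level of 14 genes in each array of control basal, mutant GFP-positive basal, control Sca1-positive luminal and mutant Sca1-positive luminal cells, with lines at the group means. Il24 and Scrg1 are high only in the 3 mutant basal arrays, Amtn and Sprr2f are highest in the 2 mutant luminal arrays, and Lgr5 and Grik3 are highest in the 3 control basal arrays.

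Of the 8 lineage lists, 3 held 1 gene each that was called in the interaction, against 1.09% of all genes. None of the 10 measured hormone-sensing genes, 14 luminal keratin and epithelial genes, 16 basal transcription factors, 18 luminal transcription factors or 11 milk genes was called in it by limma, and at an unadjusted p under 0.05 there were 1, 3, 3, 6 and 3, against 10.2% of all genes. Lists this short would hold few calls at the share of all genes. Among contractile genes 1 of 16 was called, Lmod1, negative at -1.69, while 10 of the 16 had an unadjusted p under 0.05 and the list's median interaction was -0.89. Among luminal progenitor genes 1 of 12 was called, Lcn2, negative at -1.74, with 4 at an unadjusted p under 0.05. The call of Lcn2 was lost in the model of the 11 arrays (adjusted p = 0.0612). Among basal keratins 1 of 7 was called, Krt5 (interaction -1.91, SE 0.38, adjusted p = 0.0191), and 4 had an unadjusted p under 0.05. Krt5 averaged 10.55 ± 0.19 in control basal cells and 4.83 ± 0.16 in control luminal cells (SD, n = 3 each), and the mutant luminal arrays (6.76 and 7.18) lay above the control luminal mean, against a mutant basal mean of 10.78 ± 0.12 (SD, n = 3). Of the immediate early and stress genes 3 of 16 were negative, Hspa1a (-1.01), Junb (-0.95) and Atf3 (-0.88). Each of these 3 was lost without at least 5 of the 11 arrays, Krt5 without 2 (adjusted p up to 0.134) and Lmod1 without 1 (0.0769).

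Markers of other cell types were low in the sorted populations, with exceptions. The mean level over 11 immune markers was 3.52 to 3.57 in basal and 3.51 to 3.66 in luminal arrays, at the array median, and over 10 endothelial markers it was 3.41 to 3.56 and 3.71 to 3.83. Of the immune markers Csf1r was called lower in basal cells (-0.51, a call lost without luminal replicate 3). Cd68 was not called but stood above the array median in all 5 arrays, at 6.05, 5.23 and 5.915 in basal and 5.56 and 6.315 in luminal arrays. Of the endothelial markers Eng (3.66, 4.204 and 3.67 against 5.34 and 6.10) and Vwf (-0.90) were called lower in basal cells. Pecam1, Cdh5, Kdr and Tek were near the array median in all 5 arrays, and Emcn, Esam, Cldn5 and Plvap were not called. Of 9 fibroblast markers, which averaged 4.44 to 4.61 in basal and 4.43 to 4.44 in luminal arrays, Col1a2 was higher in basal cells (4.66, 4.93 and 5.90 against 3.94 and 4.05, adjusted p = 0.0533 without luminal replicate 1) and Dcn was high in both. Of the rest of this list, Pdgfra, Lum, Dpt and Col3a1 were near the array median. Col1a1 (0.04), Fbln1 (0.63) and Fn1 (-0.22) were not called. Of 7 pericyte markers, averaging 4.08 to 4.31 and 3.76 to 3.83, Mcam (2.26) and Cspg4 (0.90, adjusted p = 0.0909 without luminal replicate 3) were higher in basal cells and Notch3 was lower, while Pdgfrb and Rgs5 were near the array median. Of 4 measured Schwann cell markers, averaging 4.16 to 4.38 and 3.95 to 4.11, Sox10, which is also on the list of basal factors, was higher (1.40), Mbp was lower (-0.55, adjusted p up to 0.277 without basal replicate 2, basal replicate 3 or luminal replicate 1), and S100b and Cdh19 were not called. None of 7 adipocyte or 2 measured erythroid markers was called by limma, nor had any an unadjusted p under 0.05. On the scale of log2 summed intensity, the immune list reached 7.15 to 7.40 in basal and 7.22 to 7.56 in luminal arrays, the endothelial list 6.75 to 6.92 and 7.24 to 7.54, the fibroblast list 10.30 to 10.93 and 11.14 to 11.23, the pericyte list 7.96 to 8.35 and 6.86 to 6.93, and the Schwann cell list 6.76 to 7.10 and 6.20 to 6.47. The part of other cells in the matrix genes above was not tested.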

How the data were processed

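RNA levels were read on Affymetrix arrays for mouse genes, 20 arrays in 7 groups, of which 5 arrays in 2 groups are compared here. The authors deposited log2 intensity summaries of 34760 probe sets, with values from 1.98 to 13.07. Per the submitters' processing notes the affy package was used, and its version, the normalisation and any filter are not given in the sources used here. Probe sets with 1 gene symbol in the platform annotation (21640) were kept, those with several (1321) or with none listed (11799) were left out, and the probe set with the highest mean stood for its gene, leaving 19937 genes, 954 of which had several probe sets. Symbols were checked against RefSeq (21553 probe sets matched).

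limma 3.58.1 in R 4.3.3 fitted 7 group means to the 20 arrays, with empirical Bayes moderation and Benjamini-Hochberg adjustment over all genes. The contrasts were mutant GFP-positive basal minus mutant Sca1-positive luminal, and that difference minus the same difference in controls. The code was tested on simulated data. The labels do not say that replicate numbers mark shared pools, so the fit was not paired. The p-values rest on the spread between arrays of a group, whatever its source, pooled over the 7 groups. The precision is limited by the number of arrays. Genes were named by rule: the 15 largest called differences in each direction without overlap, all members of lists of up to 16 measured genes and the leading members of longer lists, the 8 largest interactions in each direction, the sort markers, and the 5 called genes with the highest level in each direction. The lists and the comparison were chosen with earlier results of these data known. Alternatives were other normalisations, filters, probe set rules, spread estimates, samples in the fit, replicate blocks and leaving out each array.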

Additional observations from a re-analysis of the deposited data

Results flagged for a closer look

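For 42 of the named genes the basal to Sca1-positive luminal difference itself differed between mutants and controls, by the interaction in limma at an adjusted p under 0.05. Values are log2, mutant difference minus control difference. Mutant cells were GFP-positive and control cells GFP-negative, so the transgene, the gate and cell origin cannot be told apart. Of these genes 20 were positive and 22 negative, and 21 of the 42 kept their call under every alternative in which they were tested.

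Positive values were 5.40 for Scrg1, 5.22 for Il24, 5.08 for Fndc1, 4.63 for Sparcl1, 4.39 for Car12, 4.35 for Them5, 3.63 for Nrg1 and 3.38 for Fbln5, most of which were near the array median in control cells of both kinds. Matrix and adhesion genes included Dcn at 3.23, Matn2 at 2.94, Vcan at 2.90 and Cdh2 at 2.78. Signalling genes included Sfrp1 at 3.09, Il33 at 3.08, Jag1 at 2.64, Id2 at 2.41, Ereg at 2.03, Cxcl12 at 1.90 and Plxna2 at 1.78. The cyclophilin gene Ppic stood at 1.64.

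Negative values were -4.62 for Grik3, -4.24 for Scn7a, -3.68 for Lgr5, -3.56 for Itprid1, -3.27 for Map1b and -3.23 for Serping1. In these genes the control basal mean lay above the mutant GFP-positive basal mean. Man1a stood at -4.02, Chil1 at -4.14, Amtn at -3.08 and Sprr2f at -2.95. Id3 stood at -2.59, so that Id2 and Id3 had opposite signs. The metabolic genes Tpi1 and Fdft1 stood at -2.17 and -1.23, and the mTORC1 restraint Tsc2 at -1.14. Krt5 stood at -1.91, the semaphorin Sema3c at -1.83, Lcn2 at -1.74, the contractile Lmod1 at -1.69 and the hemidesmosomal Dst at -0.82. The stress genes Hspa1a, Junb and Atf3 stood at -1.01, -0.95 and -0.88. With single arrays of the 4 groups left out, the interaction call was lost for Fdft1 without any of 8 of the 11 arrays (adjusted p up to 0.186), Sema3c without any of 6 (0.101), Tsc2 without any of 4 (0.135), Tpi1 and Id3 without mutant luminal replicate 3 (0.124 and 0.129) and Dst without mutant luminal replicate 1 (0.121).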

How the results depend on the processing

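The 2125 calls between the populations became 1322 to 1996 when 1 of the 5 arrays was left out, the lowest counts coming without a luminal array. The 218 interaction calls became 117 to 216 when 1 of the 11 arrays was left out, and 124 with only those arrays in the fit. Every other alternative stayed within 1.5 times of the counts, but similar counts can hold different genes. With only the 5 compared arrays in the fit there were 1589 calls between the populations, of which 1363 were among the 2125. Calls lost in that limma fit included those of Krt18 (adjusted p = 0.0858), Zeb1 (0.0775), Ly6e (0.0689) and Id4 (0.057). Fitting the replicate number as a replicate block gave 2033 and 190 calls, and as a random block with genotype 2144 and 221. The numbers were not treated as a pairing, since the labels do not say that they mark shared pools. Deviations of same-numbered basal and luminal arrays correlated at -0.009 and -0.013. With 2 luminal arrays their deviations from the group mean mirror each other, so these values cannot decide whether pools were shared. Of 192 named genes called between the populations, 150 kept their call under every alternative in which they were tested. The filter on dim genes kept 6452 genes for this comparison, and a named gene that it left out was not counted as changed. Of 179 not called, 153 stayed so, and no called value changed sign. No interval based on depth can be given for arrays.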
